A study of Mus musculus with 18 samples.

Results

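The astrocyte genes described here are 37 named genes, matched by symbol to the gene rows of the deposited count table. All 37 had enough counts to be tested, out of 57180 gene rows in the table and 16738 that were tested. They were divided into 33 homeostatic genes, which serve the resting functions of astrocytes, and 4 reactive genes, Gfap, Vim, Lcn2 and Serpina3n. RNA came from the hippocampus of 18 adolescent male wild-type C57BL/6J mice, 1 library per mouse and 6 mice per group. The exercise mice were trained in aerobic exercise from 1 week before chronic social defeat stress (CSDS), and training went on during the defeat. In CSDS, a depression model, a mouse is repeatedly exposed to an aggressive resident. The CSDS mice underwent the defeat alone, and the control mice were untreated. No group had exercise without defeat, so exercise was measured only on top of CSDS.

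Astrocytes are the glial cells that take up transmitter at synapses, buffer potassium, bicarbonate and water, feed neurons and wrap vessels with their endfeet. After injury or inflammation they become reactive: they build more of the intermediate filament proteins GFAP and vimentin and secrete acute-phase proteins such as lipocalin 2 and serpin A3N. In the hippocampus, fewer or smaller astrocytes have been described after chronic stress in rodents, and running is known to act on hippocampal neurogenesis and glia. In whole tissue, fewer cells of a type and less RNA per cell cannot be told apart, and several of these genes, among them Apoe, Clu, Vim, Id3 and Mfge8, are also made by microglia or by cells of the vessel wall.

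None of the 37 genes passed a Benjamini-Hochberg adjusted p under 0.05 in edgeR in any of the 3 comparisons. Between exercise and CSDS mice 7 of the 37 members had an unadjusted p under 0.05, a share near the 15.6% of all genes tested. Mfge8, Apoe, Id3, Fgfr3 and Sox9 were lower and Slc4a4 and Etnppl higher in exercise mice. With a correction for transcript GC content, described below, Apoe, Id3 and Fgfr3 no longer had an unadjusted p under 0.05 in edgeR. After CSDS, against control, 16 of the 33 homeostatic and 3 of the 4 reactive genes had positive log2 fold changes; without 5 libraries that hold markers of tissue next to the hippocampus it was 18 and 2, and 19 of the 37 genes had the other sign. In 10 of the 37 genes a single mouse stood far from the rest of its group, and some of these mice were among those 5.

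The upstream sequences of the 4 reactive genes are shown because Vim and Serpina3n varied with Gfap across all 18 mice, as described further on. Without control replicate 2 neither relation passed the adjusted threshold. Each is the RefSeq sequence (GRCm38.p6) of 300 bases, from 250 before to 50 after the annotated start of transcription, read 5′ to 3′ on the gene's own strand. Capitals mark matches to TTCNNNGAA, a pattern bound by STAT factors, or to ACANNNTGT, a simplified form of the glucocorticoid receptor element. Both patterns read the same on either strand, and no window shown held both. The Gfap window lies at chr11:102897151-102897450 on the minus strand, the Vim window at chr2:13574061-13574360 on the plus strand, the Serpina3n window at chr12:104406458-104406757 on the plus strand and the Lcn2 window at chr2:32387690-32387989 on the minus strand. The RefSeq starts used for Gfap, Vim and Lcn2 lie inside the longer genes of the GENCODE annotation.
Gfap: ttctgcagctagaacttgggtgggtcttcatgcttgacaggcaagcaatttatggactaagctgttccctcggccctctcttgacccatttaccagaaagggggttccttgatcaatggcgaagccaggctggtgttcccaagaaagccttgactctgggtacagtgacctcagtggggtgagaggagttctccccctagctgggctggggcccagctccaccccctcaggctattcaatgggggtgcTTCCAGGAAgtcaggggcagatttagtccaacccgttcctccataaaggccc
Vim: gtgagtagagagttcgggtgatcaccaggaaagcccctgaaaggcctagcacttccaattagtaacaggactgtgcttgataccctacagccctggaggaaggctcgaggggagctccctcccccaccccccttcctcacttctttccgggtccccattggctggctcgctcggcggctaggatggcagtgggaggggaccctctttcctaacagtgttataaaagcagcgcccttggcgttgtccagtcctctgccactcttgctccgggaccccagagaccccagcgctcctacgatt
Serpina3n: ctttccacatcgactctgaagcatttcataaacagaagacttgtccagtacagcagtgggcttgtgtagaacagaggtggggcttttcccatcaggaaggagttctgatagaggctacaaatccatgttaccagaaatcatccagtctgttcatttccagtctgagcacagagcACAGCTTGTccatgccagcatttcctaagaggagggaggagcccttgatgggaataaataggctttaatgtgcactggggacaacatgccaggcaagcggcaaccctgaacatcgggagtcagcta
Lcn2: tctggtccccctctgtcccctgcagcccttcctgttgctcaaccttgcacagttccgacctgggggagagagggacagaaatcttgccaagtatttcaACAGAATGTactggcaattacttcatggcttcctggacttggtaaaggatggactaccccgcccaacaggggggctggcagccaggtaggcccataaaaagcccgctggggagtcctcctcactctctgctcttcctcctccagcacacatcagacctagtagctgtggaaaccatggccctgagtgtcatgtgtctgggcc
The match in Gfap begins 2 bases before the start of transcription, that in Serpina3n 76 bases before it and that in Lcn2 152 bases before it, and the Vim window held neither pattern. TTCNNNGAA was present in the windows of 6 of the 32 members with a RefSeq entry (Acsbg1, Agt, Aldoc, Gfap, Ntsr2 and Slc1a3), and in 9.55% of the 27025 genes with at least 1 window. ACANNNTGT was present in 5 of the 32 (Cldn10, Glul, Lcn2, Serpina3n and Slc1a2), and in 7.90% of the 27025 genes. A match describes the letters only, and binding was not measured.

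Totals were 18911080 to 24136591 counts per library. Levels are counts per 1000000 (CPM) after scaling for library size and composition. Per kilobase of exon the 37 genes spanned a wide range: Apoe, which encodes the lipid carrier apolipoprotein E, averaged 775 CPM per kilobase over the 18 libraries, Sparcl1, a secreted matrix protein that promotes synapse formation, 727, and Glul, glutamine synthetase, 560 CPM per kilobase. At the other end Bmpr1b, a BMP receptor, averaged 2.88 and Lcn2 1.32 CPM per kilobase. No member was at 0 in any library. Within groups the members varied about as much as other genes of such levels. The within-group SD of log2 CPM had a median of 0.207 over the members. It was also 0.207 over the 8689 tested genes at a mean of 15 CPM or more, a level that 36 of the 37 reached. It was under 0.2 for 17 members, lowest for Mlc1 at 0.118, and highest for Lcn2 at 1.97, Etnppl at 1.07 and Agt at 0.996.

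**Figure D1:**
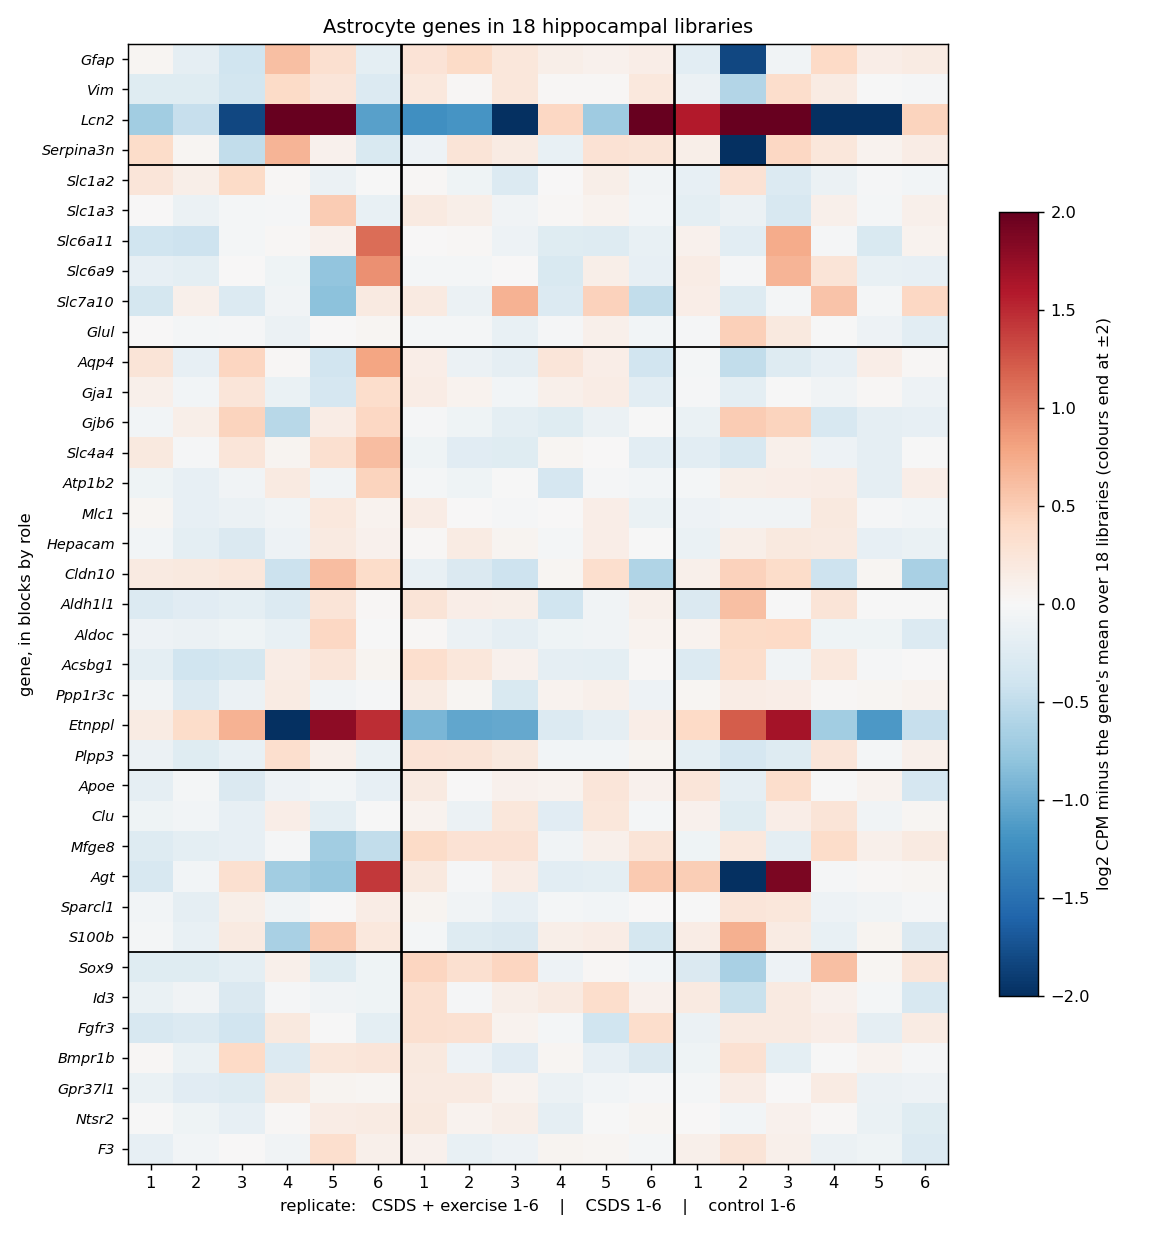
Log2 CPM of each of the 37 genes minus that gene's mean over the 18 libraries, with genes in rows in blocks by role and mice in columns, exercise, CSDS and control from left to right. Most rows are pale, while Lcn2, Etnppl and Agt, and the control replicate 2 column in Gfap and Serpina3n, hold the strong colours; colours end at 2 log2 units in either direction.

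Markers of neighbouring tissue set 5 libraries apart. Control replicate 2 had a mean level of 11 neocortical markers of 5.88 log2 CPM, against 3.62 to 4.34 in the other 17 libraries. The same library was low in markers of the hippocampus itself: the mean level of 10 dentate granule cell markers was 2.75 log2 CPM, against 5.18 to 6.08 in the other 17, and that of 12 pyramidal cell markers 5.31, against 6.01 to 6.73. Prox1, a transcription factor that defines granule cells, was at 10.4 CPM in it, against 83.5 to 145 CPM, and C1ql2, a synaptic protein of granule cells, at 0.408 CPM, against 40.7 to 142 CPM. Its label, hippocampus, thus goes against its markers. In exercise replicates 3 and 6 and control replicates 1 and 3, the mean level of 11 thalamic markers was 5.14 to 6.56 log2 CPM, against 3.14 to 3.76 in the other 14, which include all 6 CSDS libraries. Choroid plexus markers differed widely within every group, with summed levels of 69.1 to 6747 CPM in exercise, 101.5 to 8682 CPM in CSDS and 20.6 to 5602 CPM in control mice. The comparisons below use all 18 libraries unless said otherwise. Leaving out the 5 turned the sign of 9 of the 37 log2 fold changes in exercise against CSDS, of 13 in exercise against control and of 19 in CSDS against control. None of the 37 genes passed the adjusted threshold with or without them.

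Among the reactive genes, Gfap, the intermediate filament protein by which astrocytes are usually stained (ENSMUSG00000020932, chr11:102887336-102900912, minus strand, GRCm38), lay at 305, 384 and 609 CPM (lowest, median, highest) in exercise mice, at 427, 458 and 523 CPM in CSDS mice and at 114, 414 and 534 CPM in control mice. The groups overlapped, and the 6 CSDS mice were the closest together. The log2 fold change of Gfap was -0.14 ± 0.25 (SE) in exercise against CSDS (edgeR adjusted p = 0.806) and 0.30 ± 0.25 in CSDS against control (adjusted p = 0.993). The lowest value belonged to control replicate 2, the library with neocortical markers. Without it Gfap in CSDS against control was 0.11 ± 0.15, and without all 5 libraries -0.03 ± 0.14; in exercise against CSDS it was 0.02 ± 0.13 without the 5. The part of the neocortical tissue in these values was not tested.

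Vim, the filament vimentin, lay at 44.9, 48.9 and 75.8 CPM in exercise mice, at 58.8, 63.0 and 67.7 CPM in CSDS mice and at 38.4, 57.3 and 74.1 CPM in control mice. Of the 6 exercise mice, 4 were below every CSDS mouse and 2 above every one. The log2 fold change of Vim was -0.18 ± 0.15 in exercise against CSDS (edgeR adjusted p = 0.549) and 0.13 ± 0.15 in CSDS against control (adjusted p = 0.993). These values of Vim were -0.06 ± 0.12 and 0.08 ± 0.14 without the 5 libraries. Serpina3n, an acute-phase protease inhibitor, lay at 31.6, 46.3 and 71.5 CPM in exercise mice, at 40.0, 51.5 and 54.5 CPM in CSDS mice and at 10.4, 48.8 and 59.2 CPM in control mice. Its groups overlapped, and its lowest value was again that of control replicate 2. Its log2 fold change was -0.01 ± 0.28 in exercise against CSDS (edgeR adjusted p = 0.984) and 0.14 ± 0.28 in CSDS against control (adjusted p = 0.993), and -0.07 ± 0.16 in the second without that library. Serpina3n was at 0.19 ± 0.13 in exercise against CSDS without the 5 libraries.

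Lcn2, the iron-binding acute-phase protein lipocalin 2, lay at 0.423, 1.00 and 10.2 CPM in exercise mice, at 0.277, 0.783 and 9.59 CPM in CSDS mice and at 0.136, 3.25 and 14.01 CPM in control mice. High values were scattered over all groups: 10.2 and 6.54 CPM in exercise replicates 5 and 4, 9.59 CPM in CSDS replicate 6, and 14.01, 7.49 and 4.48 CPM in control replicates 3, 2 and 1. Its log2 fold change was 0.50 ± 0.99 in exercise against CSDS (edgeR adjusted p = 0.825) and -1.01 ± 0.99 in CSDS against control (adjusted p = 0.993). Without the 5 libraries the value for Lcn2 in CSDS against control was 1.53 ± 1.18 (edgeR adjusted p = 0.999), the opposite sign. Without CSDS replicate 6 alone it was -2.395 ± 1.02, with an unadjusted p under 0.05 (edgeR adjusted p = 0.999), so the value depended on which CSDS and control mice were counted. In exercise against CSDS it was 0.996 ± 0.921 without the 5 libraries.

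**Figure D2:**
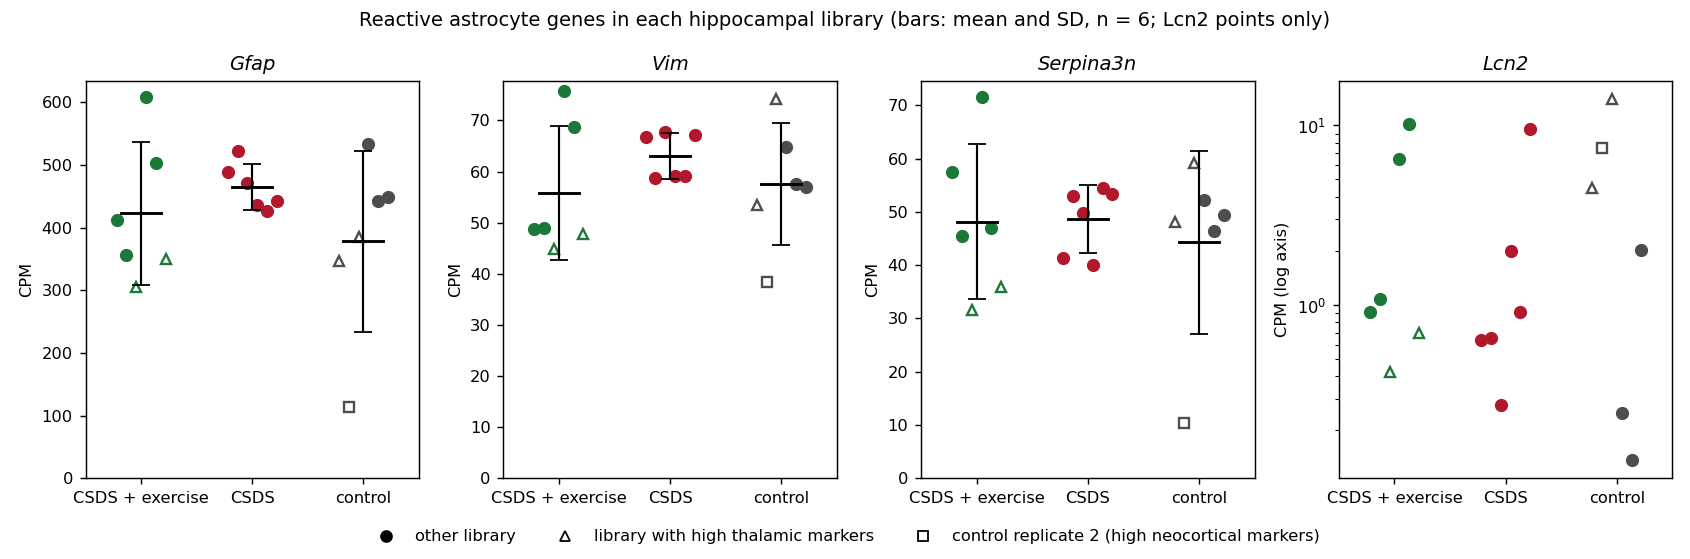
CPM of the 4 reactive genes in each mouse, exercise, CSDS and control from left to right, with mean and SD (n = 6) for Gfap, Vim and Serpina3n and a log axis with no bars for Lcn2; open triangles are libraries with high thalamic markers and the open square is control replicate 2. The square lies lowest of all 18 mice for Gfap at 114 CPM, for Vim at 38.4 CPM and for Serpina3n at 10.4 CPM, and Lcn2 has high and low mice in each group.

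Across the 18 mice, as deviations of log2 CPM from the group means, Gfap and Vim varied together (Pearson r = 0.80, permutation p = 0.0026, adjusted over 6 pairs of genes p = 0.0125; Spearman rho = 0.775, permutation p = 0.00295, adjusted p = 0.0177), and r was 0.74 without the 2 mice farthest from the median of Gfap. Gfap and Serpina3n did so too (r = 0.92, permutation p = 0.00417, adjusted p = 0.0125; rho = 0.742, permutation p = 0.00993, adjusted p = 0.0298), with r = 0.73 without the 2 farthest mice. Without control replicate 2, r was 0.73 for Gfap with Vim (permutation p = 0.0158, adjusted p = 0.0945) and 0.63 for Gfap with Serpina3n (permutation p = 0.0436, adjusted p = 0.131), neither under 0.05 after adjustment. In those 17 mice r without the 2 farthest mice was 0.49 for Gfap with Vim and 0.19 for Gfap with Serpina3n. The relation of Gfap with Serpina3n thus rests on few samples. Spearman rho in the 17 mice was 0.65 for Gfap with Vim (permutation p = 0.0219, adjusted p = 0.1315). It was 0.38 for Gfap with Serpina3n (permutation p = 0.191, adjusted p = 0.2956). The other pairs did not pass: r was 0.09 for Gfap with Aqp4, -0.05 for Slc1a3 with Slc1a2, 0.24 for Gja1 with Gjb6 and 0.37 for Apoe with Clu (permutation p = 0.687, 0.859, 0.455 and 0.176; adjusted p = 0.824, 0.859, 0.682 and 0.353). Spearman rho for them was -0.15, 0.22, 0.11 and 0.49 (permutation p = 0.560, 0.405, 0.650 and 0.0593; adjusted p = 0.650, 0.607, 0.650 and 0.118).

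The comparison of CSDS with control asks how defeat alone altered these genes. Of the 37 members 0 were called by edgeR at an adjusted p under 0.05, as were 0 of the 16738 genes tested (0.0%), and DESeq2 called 0 members and 1 gene. At an unadjusted p under 0.05 there was 1 member, Id3, against 3.51% of all genes, and 0 members had groups that did not overlap, against 0.239% of all genes. The median log2 fold change was -0.01 over the 33 homeostatic genes, with 16 positive and 17 negative values, and 0.13 over the 4 reactive genes, with 3 positive and 1 negative; over all genes tested it was 4.016e-05. Over the 34 alternative settings the reactive median ran between -0.02 and 0.23 and the homeostatic median between -0.04 and 0.03.

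Id3, an inhibitor of basic helix-loop-helix factors that responds to BMP signals, lay at 34.0, 38.6 and 44.3 CPM in CSDS mice and at 25.5, 35.1 and 39.4 CPM in control mice. The groups overlapped, with 3 of 6 CSDS mice above every control mouse, and the log2 fold change was 0.22 ± 0.11 (edgeR adjusted p = 0.993). The unadjusted p of Id3 in edgeR was 0.0494, and its lowest mouse was control replicate 2. The unadjusted p was not under 0.05 without that library or in DESeq2. Nor was it with the correction for GC content described below, where the value was 0.18 ± 0.11. Without the 5 libraries the value of Id3 was 0.26 ± 0.11, with an unadjusted p under 0.05. The largest value among homeostatic genes was that of Etnppl, an ethanolamine phosphate phospholyase, at 10.2, 14.2 and 23.04 CPM in CSDS mice and 9.51, 21.4 and 66.8 CPM in control mice, a log2 fold change of -0.995 ± 0.517 (edgeR adjusted p = 0.993). The 3 highest control mice for Etnppl, at 66.8, 48.5 and 27.6 CPM, were the 3 with thalamic or neocortical markers. Without the 5 libraries its value was 0.26 ± 0.54 (edgeR adjusted p = 0.999).

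By role, the transmitter transporters with Glul had a median log2 fold change of -0.07 over 6 genes in CSDS against control, the ion, water and junction genes 0.02 over 8, the metabolic genes -0.08 over 6, the secreted proteins -0.05 over 6 and the receptors and regulators 0.06 over 7. With the 5 libraries left out these medians were -0.03, 0.03, 0.00, 0.02 and 0.07. Slc1a2, the main glutamate transporter GLT-1, averaged 2580 ± 234 CPM in CSDS and 2569 ± 362 CPM in control mice (SD, n = 6 each), a log2 fold change of 0.01 ± 0.10 (edgeR adjusted p = 0.999). Glul, which turns the captured glutamate into glutamine, averaged 1809 ± 101 CPM in CSDS and 1948 ± 352 CPM in control mice, a log2 fold change of -0.11 ± 0.10 (edgeR adjusted p = 0.993). Both differences were within the spread of the mice. Glul was highest in control replicate 2, and without the 5 libraries its value was 0.07 ± 0.08 (edgeR adjusted p = 0.999), the opposite sign. Aqp4, the water channel of the endfeet, averaged 104 ± 16.7 CPM in CSDS and 97.1 ± 14.2 CPM in control mice, a log2 fold change of 0.10 ± 0.17 (edgeR adjusted p = 0.993), and -0.02 ± 0.15 without the 5 libraries. Gja1, connexin 43, averaged 249 ± 22.96 CPM in CSDS and 233 ± 12.2 CPM in control mice, a log2 fold change of 0.10 ± 0.10 (edgeR adjusted p = 0.993). Of the 6 CSDS mice, 4 were above every control mouse for Gja1 and 1 below every one.

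The comparison of exercise with CSDS mice asks what training added on top of the defeat. It uses the same CSDS libraries as the comparison above, so the signs of both are tied through them. Of the 37 members 0 were called by edgeR at an adjusted p under 0.05, and 0 of all genes tested (0.0%). At an unadjusted p under 0.05 there were 7 members, 2 higher and 5 lower in exercise mice, against 15.6% of all genes, so that their share is near that of the genes at large. Without the 5 libraries there were again 7, against 10.8% of all genes: Agt, lower in exercise mice, took the place of Fgfr3, and the other 6 were shared. The median log2 fold change was 0.01 over the homeostatic genes, with 18 positive and 15 negative, -0.08 over the reactive genes, with 1 positive and 3 negative, and 0.02 over all genes tested. Without the 5 libraries the homeostatic median was -0.04, with 11 positive and 22 negative, and the reactive median 0.10, with 3 positive and 1 negative. Over the 34 alternative settings the reactive median ran between -0.23 and 0.14 and the homeostatic median between -0.09 and 0.09, so neither kept a direction.

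Calls in this comparison depended on the tool and on 1 library. DESeq2 called 1 member, Mfge8, against 1.25% of the 12474 genes to which it gave an adjusted p. limma voom with quality weights, which counts libraries far from their group less, called 13 members against 33.3% of all genes: Sox9, Apoe, Id3, Etnppl, Cldn10, Gpr37l1, Vim, Plpp3, Aldh1l1, Mfge8, Acsbg1, Fgfr3 and Slc4a4. Without exercise replicate 4, edgeR called 2 members, Mfge8 and Slc4a4, against 3.71% of all genes. Exercise replicate 4 had the highest Gfap, Serpina3n and Sox9 and the lowest Etnppl of its group, as the map of the genes by mouse shows.

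Among secreted proteins, Mfge8, a bridging protein by which phagocytes recognise dying cells (ENSMUSG00000030605, chr7:79133768-79149060, minus strand), lay at 102, 141 and 162 CPM in exercise mice, at 158, 199 and 214 CPM in CSDS mice and at 144, 181 and 212 CPM in control mice. Of the 6 exercise mice, 5 were below every CSDS mouse, and exercise replicate 4 was above only CSDS replicate 4. The log2 fold change of Mfge8 was -0.50 ± 0.12 in exercise against CSDS (edgeR adjusted p = 0.151), the smallest among the members. Over the alternatives it lay between -0.60 and -0.31, with adjusted p between 0.000728 and 0.989 in edgeR, DESeq2 and limma. The same exercise libraries gave -0.40 ± 0.12 against control mice (edgeR adjusted p = 0.228), and CSDS against control gave 0.11 ± 0.12 (adjusted p = 0.993). Without the 5 libraries Mfge8 in exercise against CSDS was -0.49 ± 0.12 (edgeR adjusted p = 0.395).

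Apoe lay at 1343, 1502 and 1603 CPM in exercise mice, at 1645, 1748 and 1935 CPM in CSDS mice and at 1299, 1684 and 2105 CPM in control mice. Every exercise mouse was below every CSDS mouse, while the control mice spanned both. Its log2 fold change in exercise against CSDS was -0.25 ± 0.10 (edgeR adjusted p = 0.268). Apoe and Id3 were the 2 members whose exercise and CSDS mice did not overlap, both lower in exercise, against 0.89% of all genes with groups that did not overlap. Id3 lay at 28.3, 32.8 and 34.0 CPM in exercise mice, against 34.0, 38.6 and 44.3 CPM in CSDS mice, a log2 fold change of -0.29 ± 0.11 (edgeR adjusted p = 0.234). The highest exercise mouse and the lowest CSDS mouse almost met for Id3. With the GC correction described below, Apoe was at 0.06 ± 0.14, the opposite direction, and Id3 at -0.16 ± 0.11.

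Among receptors and regulators, Fgfr3, a fibroblast growth factor receptor, lay at 94.4, 105 and 141 CPM in exercise mice and at 93.0, 141 and 157 CPM in CSDS mice, a log2 fold change of -0.27 ± 0.13 (edgeR adjusted p = 0.311). Sox9, a transcription factor of glial fate, lay at 28.3, 28.7 and 35.7 CPM in exercise mice and at 31.2, 37.9 and 45.2 CPM in CSDS mice, a log2 fold change of -0.34 ± 0.16 (edgeR adjusted p = 0.317). For Sox9, 4 of 6 exercise mice were below every CSDS mouse, and for Fgfr3 none was. Bmpr1b, Gpr37l1 (an orphan receptor), Ntsr2 (a neurotensin receptor) and F3 (tissue factor) had log2 fold changes of 0.18, -0.09, -0.02 and 0.05, and of 0.06, -0.06, -0.02 and 0.04 without the 5 libraries.

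Of the 7 members, 2 stood higher in exercise mice. Slc4a4, the sodium bicarbonate cotransporter NBCe1 that regulates pH (ENSMUSG00000060961, chr5:88886818-89239653, plus strand), lay at 178, 211 and 277 CPM in exercise mice, at 153, 163 and 186 CPM in CSDS mice and at 145, 164 and 193 CPM in control mice. Of the exercise mice, 5 of 6 were above every CSDS mouse and 4 of 6 above every control mouse. Its log2 fold change was 0.36 ± 0.10 in exercise against CSDS (edgeR adjusted p = 0.198), 0.37 ± 0.10 in exercise against control (adjusted p = 0.207) and 0.00 ± 0.10 in CSDS against control (adjusted p = 0.999). The highest Slc4a4 value came from exercise replicate 6, a library with thalamic markers, and without the 5 libraries the value in exercise against CSDS was 0.26 ± 0.09 (edgeR adjusted p = 0.400).

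Etnppl lay at 4.71, 30.5 and 72.5 CPM in exercise mice, against 10.2, 14.2 and 23.04 CPM in CSDS mice. Of the exercise mice, 5 were above every CSDS mouse and exercise replicate 4 below every one. The log2 fold change of Etnppl was 1.28 ± 0.52 (edgeR adjusted p = 0.267), and 1.08 ± 0.48 without the 5 libraries (adjusted p = 0.450). Against control mice its value was 0.29 ± 0.51 (edgeR adjusted p = 0.858), and 1.34 ± 0.60 without the 5 libraries (adjusted p = 0.461).

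**Figure D3:**
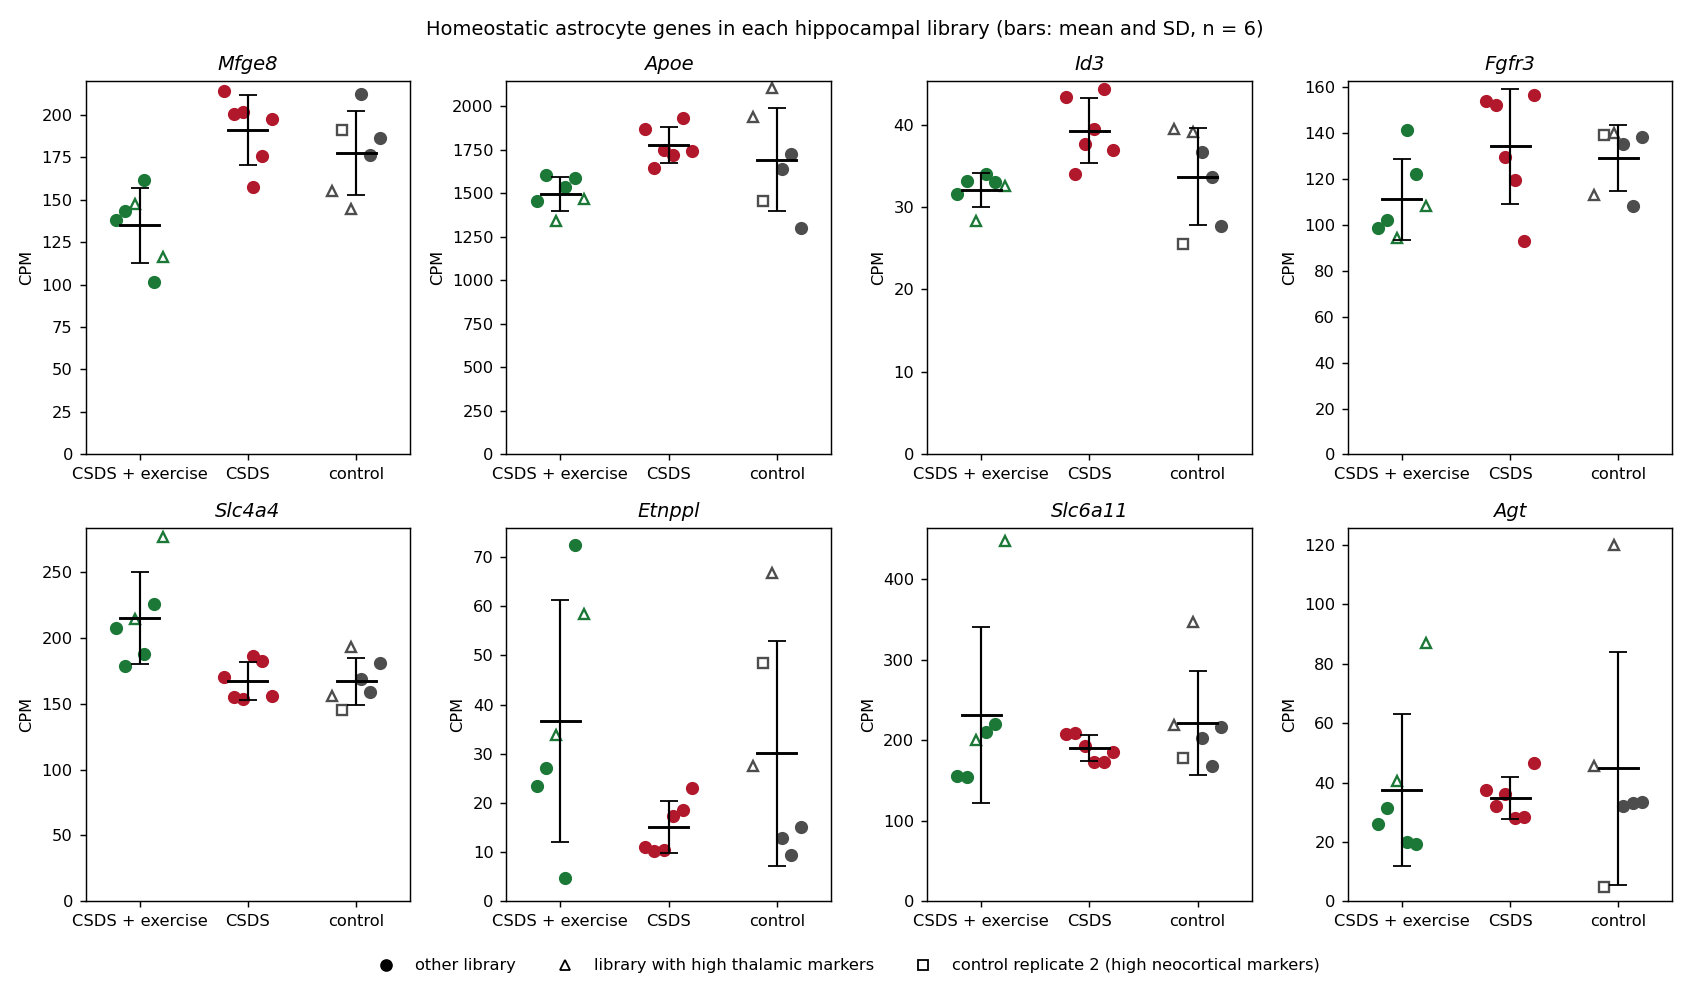
CPM of 8 homeostatic genes in each mouse, exercise, CSDS and control from left to right, with mean and SD (n = 6); open triangles are libraries with high thalamic markers and the open square is control replicate 2. For Apoe the highest exercise mouse, at 1603 CPM, lies below the lowest CSDS mouse, at 1645 CPM, and for Slc6a11 and Agt the highest mice, at 447 and 120 CPM, are triangles.

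The members outside these 7 are summarised by role for exercise against CSDS. Among the transporters, Slc1a2 averaged 2872 ± 367 CPM in exercise and 2580 ± 234 CPM in CSDS mice (log2 fold change 0.15 ± 0.10, edgeR adjusted p = 0.461). Slc1a3, the glutamate transporter GLAST, averaged 649 ± 122 CPM in exercise and 646 ± 42.6 CPM in CSDS mice (edgeR adjusted p = 0.984). Slc7a10, an exchanger of D-serine and glycine, averaged 27.0 ± 6.36 CPM in exercise and 33.3 ± 10.5 CPM in CSDS mice, a log2 fold change of -0.30 ± 0.20 (edgeR adjusted p = 0.456). These differences were within the spread of the mice, as was that of Glul, at 1822 ± 67.6 CPM in exercise and 1809 ± 101 CPM in CSDS mice. The median log2 fold change of the 6 genes of this block was 0.06, and -0.02 without the 5 libraries.

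The 8 ion, water and junction genes had a median log2 fold change of 0.19, with 6 positive values, of which 1, that of Slc4a4, had an unadjusted p under 0.05. The median was 0.02 without the 5 libraries, with 4 positive and 4 negative values. Cldn10, a claudin, averaged 31.1 ± 6.82 CPM in exercise and 24.04 ± 5.72 CPM in CSDS mice (log2 fold change 0.37 ± 0.20, edgeR adjusted p = 0.360). Gjb6, connexin 30, averaged 52.6 ± 12.2 CPM in exercise and 44.8 ± 2.96 CPM in CSDS mice (0.23 ± 0.16, edgeR adjusted p = 0.476), and Aqp4 122 ± 36.9 CPM in exercise and 104 ± 16.7 CPM in CSDS mice (0.23 ± 0.17, adjusted p = 0.491). The 2 highest exercise mice for Aqp4, at 182.9 and 142 CPM, were replicates 6 and 3, the libraries with thalamic markers, and without the 5 libraries its value was -0.03. Gjb6 was at 0.05 ± 0.12 (edgeR adjusted p = 0.901) and Cldn10 at 0.33 ± 0.21 without them. Gja1, Mlc1 and Hepacam, a gap junction protein and a pair of partners at astrocyte contacts, and Atp1b2, a sodium pump subunit, had log2 fold changes of 0.01, -0.03, -0.11 and 0.15, and of -0.13, -0.02, -0.09 and 0.06 without the 5.

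The 6 metabolic genes had a median of -0.09. Apart from Etnppl their log2 fold changes lay between -0.14 for Aldh1l1 (folate metabolism) and 0.07 for Aldoc (glycolysis), with Acsbg1 (fatty acid activation), Ppp1r3c (glycogen) and Plpp3 (lipid phosphate hydrolysis) between them. Of the secreted proteins besides Mfge8 and Apoe, Clu (clusterin, an extracellular chaperone) was at -0.09, Sparcl1 at 0.04, S100b (a calcium-binding protein) at 0.15 and Agt at 0.10. None of these genes had an unadjusted p under 0.05.

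Fold changes in exercise against CSDS went with the GC content of the transcripts, which ran from 43.8% for Etnppl to 60.6% for Apoe. Across the 37 genes Pearson r between log2 fold change and GC content was -0.53, and across all genes tested -0.54. Genes are not independent replicates and share the same libraries, so this is a description. A correction that removes each library's own trend with GC brought the value over the members to -0.11. With it Apoe was at 0.06 ± 0.14, the opposite direction, Id3 at -0.16 ± 0.11 and Fgfr3 at -0.09 ± 0.09. Mfge8 was at -0.31 ± 0.10 (edgeR adjusted p = 0.665), Slc4a4 at 0.31 ± 0.09 (edgeR adjusted p = 0.665), Sox9 at -0.39 ± 0.17 and Etnppl at 1.09 ± 0.50. Ntsr2, at 59.8% GC, was at 0.27 ± 0.09 with the correction (edgeR adjusted p = 0.669) and -0.02 ± 0.08 without it. Under the correction 3 members were higher and 2 lower at an unadjusted p under 0.05, against 5.93% of all genes, and 0 passed the adjusted threshold. The slope of a library's log2 CPM per 10 points of GC, relative to the mean of all libraries, was -0.44 to -0.12 in 5 exercise libraries and 0.19 in exercise replicate 4; it was 0.17 to 0.28 in 4 CSDS libraries and -0.15 and -0.06 in the other two. What sets these slopes was not tested.

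**Figure D4:**
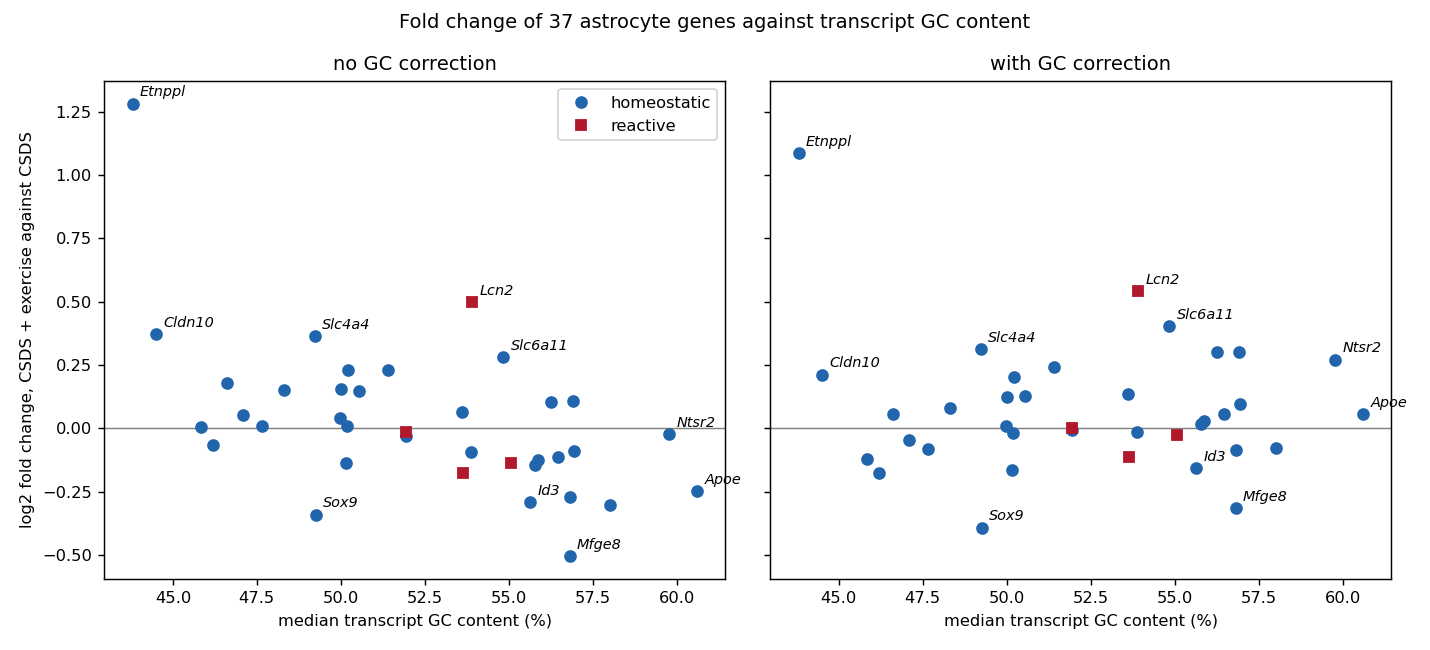
Log2 fold change in exercise against CSDS of each of the 37 genes against the median GC content of its transcripts, without (left) and with (right) the GC correction; squares are reactive and circles homeostatic genes. The correction removes such a trend by design, and r is -0.53 on the left and -0.11 on the right. On the right Mfge8 and Sox9 remain the lowest points and Etnppl the highest.

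Markers of other tissue and cells were read beside these values; none passed the adjusted threshold, and the counts below stand against 15.6% of all genes at an unadjusted p under 0.05. Of the 11 thalamic markers tested, 7 were higher and 0 lower in exercise than in CSDS mice at an unadjusted p under 0.05, with sums of 159.8 to 1396 CPM in exercise and 146.0 to 260.3 CPM in CSDS mice. Of 13 mural cell and fibroblast markers 0 were higher and 3 lower, with sums of 351 to 624 CPM in exercise and 431 to 733 CPM in CSDS mice. Of 12 microglial markers 0 were higher and 2 lower, with sums of 467 to 712 CPM in exercise and 537 to 648 CPM in CSDS mice. Of 10 markers of oligodendrocyte precursors 1 was higher and 3 lower, with a median log2 fold change of -0.27 and sums of 543 to 642 CPM in exercise and 614 to 806 CPM in CSDS mice. Of 14 neuronal markers 1 was higher and 3 lower, with a median of -0.09 and sums of 11520 to 18190 CPM in exercise and 13990 to 16880 CPM in CSDS mice. The summed levels thus overlapped between the groups in each list. Of 12 endothelial markers 1 was higher and 0 lower, with sums of 476.5 to 631 CPM in exercise and 515 to 598 CPM in CSDS mice. No mural, microglial, endothelial, precursor or neuronal marker was at 0 in any library, and 1 thalamic marker was at 0 in some. Mfge8, Apoe and Id3 are made by some of these cells as well, and the part of such cells in their values was not tested.

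The comparison of exercise with control mice shares its exercise libraries with the one above and its control libraries with the first. Of the 37 members 0 were called by edgeR at an adjusted p under 0.05, against 3 of all genes tested (0.0179%), and 0 members were called by DESeq2 or limma voom. At an unadjusted p under 0.05 there were 2 members, Slc4a4 higher and Mfge8 lower, against 11.2% of all genes; without the 5 libraries there were 6, with Etnppl higher and Sox9, Slc7a10 and Agt lower besides, against 10.7%. With all libraries 0 members had groups that did not overlap, against 0.562%. Without the 5 libraries the median log2 fold change was -0.03 over homeostatic and 0.09 over reactive genes. With all libraries it was -0.06 over homeostatic and 0.04 over reactive genes, and 0.01 over all genes tested. The 6 secreted proteins were all below 0, with a median of -0.14 and Mfge8 the farthest; with the GC correction Apoe was at 0.02, and without the 5 libraries S100b was at 0.11. Aqp4 averaged 122 ± 36.9 CPM in exercise and 97.1 ± 14.2 CPM in control mice, a log2 fold change of 0.33 ± 0.17 (edgeR adjusted p = 0.463), which was -0.05 without the 5 libraries. Ppp1r3c, the glycogen-targeting subunit of protein phosphatase 1, averaged 41.7 ± 4.13 CPM in exercise and 46.0 ± 1.76 CPM in control mice, a log2 fold change of -0.14 ± 0.08 (edgeR adjusted p = 0.530), with 5 of 6 exercise mice below every control mouse and 1 above every one. With the GC correction 4 members had an unadjusted p under 0.05 in edgeR, against 7.43% of all genes. Ntsr2 and Slc4a4 were higher and Mfge8 and Ppp1r3c lower in exercise mice.

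**Figure D5:**
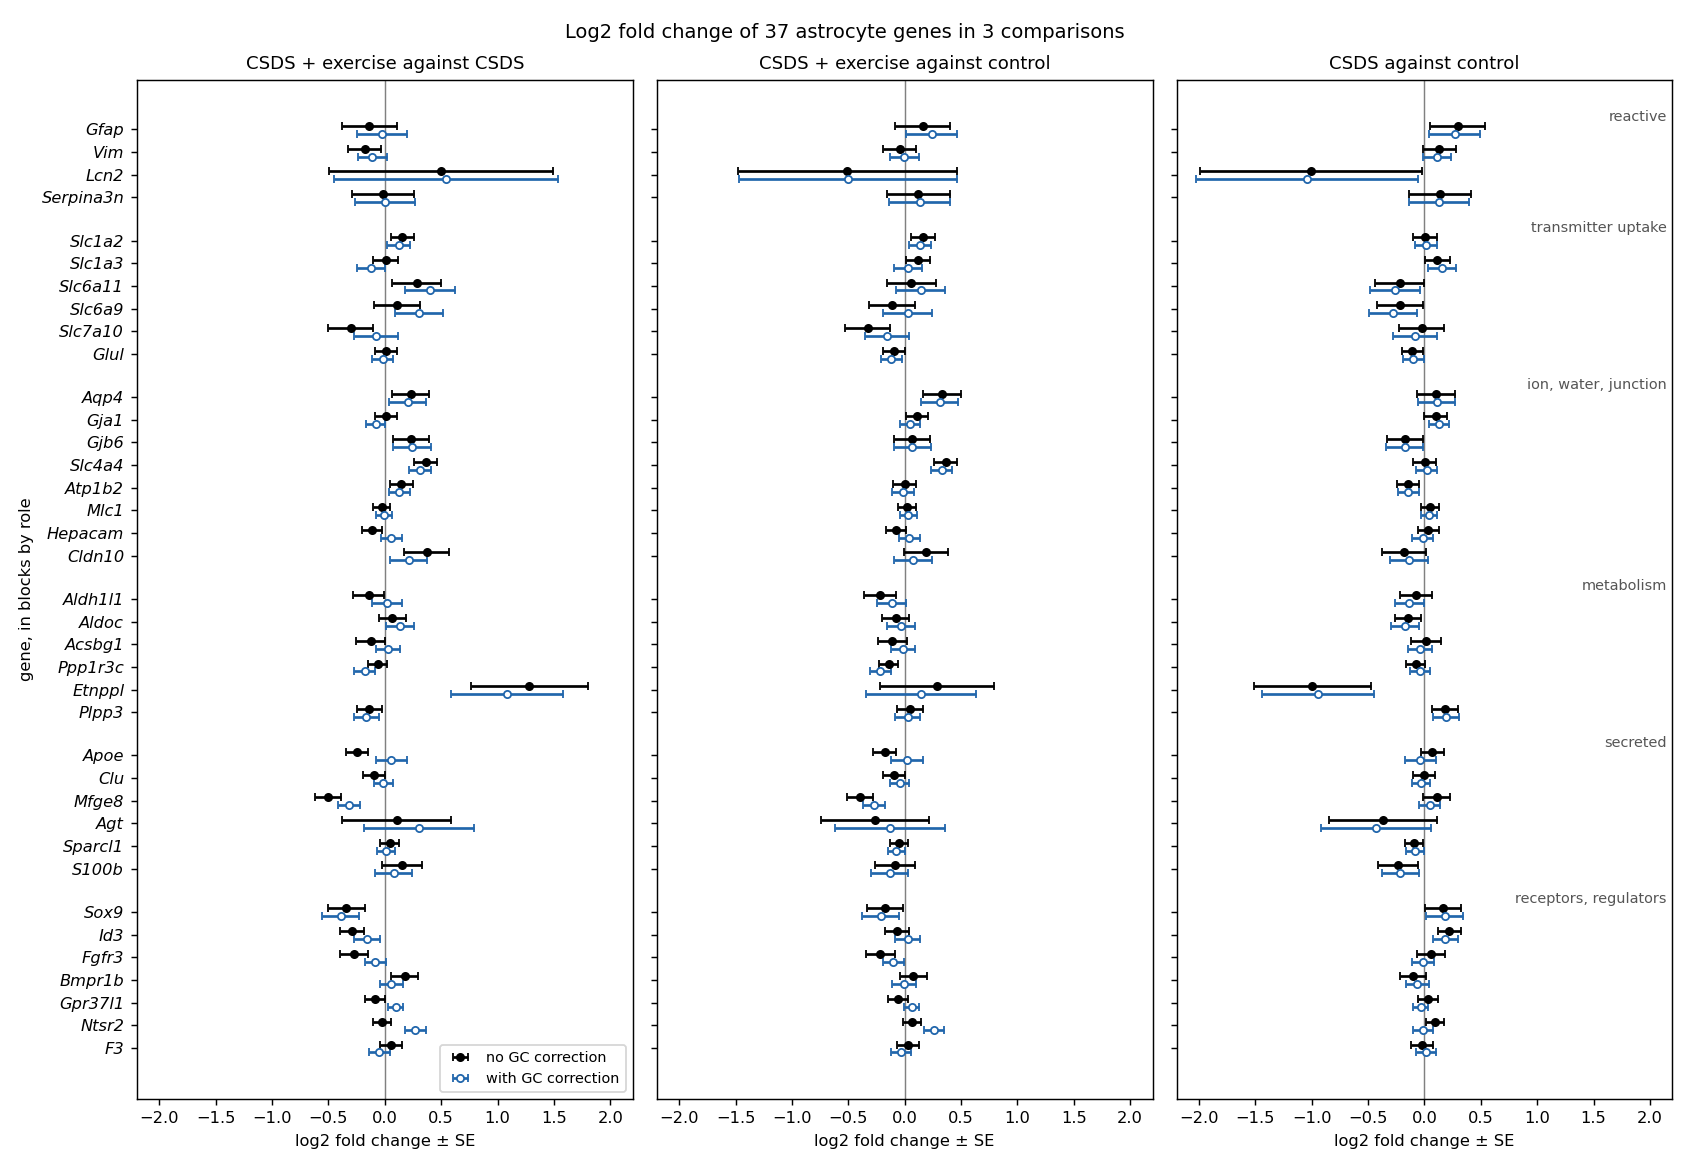
Log2 fold change with its SE of the 37 genes in blocks by role, for exercise against CSDS, exercise against control and CSDS against control from left to right; filled points have no GC correction and open points have it. Mfge8 and Slc4a4 stand away from 0 in both panels with exercise mice, at -0.50 and 0.36 against CSDS and -0.40 and 0.37 against control, and lie at 0.11 and 0.00 in the panel of CSDS against control.

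Some members were high in the 2 libraries with the highest thalamic markers, which belong to different groups. Slc6a11, the GABA transporter GAT-3, was at 447 CPM in exercise replicate 6 and 347 CPM in control replicate 3, the 2 libraries with the highest thalamic markers, against 154 to 220 CPM in the 14 libraries without them. Slc6a9, the glycine transporter GlyT1, was at 96.8 and 82.0 CPM in those 2 libraries, against 29.9 to 61.7 CPM in the 14. Agt, the precursor of angiotensin, was at 87.0 and 120 CPM in them, against 4.81 to 46.6 CPM in the 14. Exercise replicate 3 and control replicate 1 had lower thalamic levels and lay within the range of the 14 for these genes. They were at 199.8 and 219 CPM for Slc6a11, at 51.8 and 56.9 CPM for Slc6a9 and at 40.7 and 45.6 CPM for Agt. The log2 fold change of Slc6a11 in exercise against CSDS was 0.28 ± 0.22 with all libraries and -0.04 ± 0.12 without the 5, and that of Agt 0.10 ± 0.48 and -0.53 ± 0.16 (edgeR adjusted p = 0.398 for Agt without them). Etnppl was high in the same 2 libraries, at 58.3 and 66.8 CPM, but also in exercise replicate 5, at 72.5 CPM, which lacks the thalamic markers. The part of thalamic tissue in these levels was not tested.

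Control replicate 2 differed from the other 17 libraries in more than the reactive genes. Agt was at 4.81 CPM there, against 19.3 to 120 CPM, Sox9 at 21.3 against 27.4 to 50.7 CPM and Id3 at 25.5 against 27.7 to 44.3 CPM. Glul was at 2573 CPM, against 1597 to 2124 CPM, Aldh1l1 at 97.4 against 48.8 to 77.1 CPM and S100b at 120 against 46.4 to 104 CPM. The genes thus stood on both sides, and the part of the neocortical tissue in them was not tested.

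Other astrocyte genes were read from lists kept apart from the 37. Of 48 further astrocyte genes 0 were called by edgeR in any comparison. At an unadjusted p under 0.05, 3 were higher and 4 lower in exercise against CSDS, against 15.6% of all genes, and the median log2 fold change was -0.01. Elovl2, an elongase of polyunsaturated fatty acids, averaged 18.1 ± 2.90 CPM in exercise and 14.4 ± 1.51 CPM in CSDS mice, a log2 fold change of 0.33 ± 0.10 (edgeR adjusted p = 0.206), and 0.17 with the GC correction. Hes5, a Notch target, averaged 5.86 ± 1.23 CPM in exercise and 8.47 ± 2.57 CPM in CSDS mice, -0.53 ± 0.20 (edgeR adjusted p = 0.242), and -0.10 with the correction. Of 12 endfoot genes 2 were higher and 1 lower in exercise against CSDS at an unadjusted p under 0.05, against 15.6% of all genes. Their log2 fold changes were positive for 7 and negative for 5. Among them Kcnj10, the potassium channel Kir4.1, averaged 229.5 ± 98.8 CPM in exercise and 170.5 ± 14.2 CPM in CSDS mice, 0.43 ± 0.19 (edgeR adjusted p = 0.297). Its highest mouse, at 418 CPM, was exercise replicate 6, a library with thalamic markers.

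Genes that mark reactive states in injured mouse brain gave no calls either. Of 11 genes of the A1 state, 0 passed the adjusted threshold, and 3 were lower and 0 higher in exercise than in CSDS mice at an unadjusted p under 0.05, against 15.6% of all genes: H2-T23 and H2-D1, which encode class I antigen-presenting proteins, and Psmb8, an immunoproteasome subunit. H2-D1 averaged 52.9 ± 13.8 CPM in exercise and 86.0 ± 26.4 CPM in CSDS mice, a log2 fold change of -0.70 ± 0.21 (edgeR adjusted p = 0.201). H2-T23 averaged 10.8 ± 1.67 CPM in exercise and 16.9 ± 4.501 CPM in CSDS mice, -0.65 ± 0.19 (edgeR adjusted p = 0.198). With the GC correction H2-D1 was at -0.65 and H2-T23 at -0.49. Psmb8 was at -0.48 without the correction and at -0.39 with it, where its unadjusted p in edgeR was no longer under 0.05. Class I genes have close relatives that can share reads, and the proteins are made by microglia and endothelium too. Of 12 A2 genes 10 were tested, with 0 higher and 1 lower, and of 9 further pan-reactive genes 8 were tested, with 0 at that threshold in exercise against CSDS. In CSDS against control the median log2 fold change of the A1 genes was 0.10, with 9 positive and 2 negative values. That of the A2 genes was 0.15, with 6 positive and 4 negative. That of the pan-reactive genes was -0.05, with 3 positive and 5 negative, and 0 genes of these lists were called. At an unadjusted p under 0.05, against 3.51% of all genes, 0 A1 genes, 2 A2 genes (both higher) and 1 pan-reactive gene (lower) passed in CSDS against control. The A2 genes were Ptx3, a secreted pentraxin, at 0.927 ± 0.130 CPM in CSDS and 0.438 ± 0.274 CPM in control mice (1.06 ± 0.38, edgeR adjusted p = 0.993), and B3gnt5, a glycosyltransferase, at 0.803 ± 0.185 CPM in CSDS and 0.414 ± 0.0629 CPM in control mice (0.95 ± 0.39, edgeR adjusted p = 0.993). No mouse of either group was above 1.19 CPM for these 2 genes. Such levels are near the minimum count of 10, so the CSDS libraries may have carried both genes through the filter. Every CSDS mouse was above every control mouse in both, against 0.239% of all genes with groups that did not overlap. Both genes were named for their small p, so this is a description only.

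Of the signalling genes upstream of reactivity, 27 tested of 29, 4 were higher and 0 lower in exercise against CSDS at an unadjusted p under 0.05, against 15.6% of all genes, and the median log2 fold change was -0.02. Tgfbr1, a TGF-beta receptor, averaged 27.2 ± 3.96 CPM in exercise and 21.3 ± 2.27 CPM in CSDS mice, 0.35 ± 0.10 (edgeR adjusted p = 0.198). Jak2, a kinase that activates STAT factors, averaged 28.6 ± 4.46 CPM in exercise and 22.8 ± 3.04 CPM in CSDS mice, 0.33 ± 0.11 (edgeR adjusted p = 0.219). With the GC correction Tgfbr1 was at 0.17 and Jak2 at 0.15. Of the 12 genes of the glutamate and glutamine cycle 2 were higher and 0 lower, against the same 15.6%: Slc38a2, a glutamine transporter, at 110.5 ± 12.3 CPM in exercise and 91.0 ± 13.5 CPM in CSDS mice (0.28 ± 0.10, edgeR adjusted p = 0.242), and Slc17a6, a vesicular glutamate transporter that is also one of the thalamic markers. In none of these lists did a gene pass the adjusted threshold.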

How the data were processed

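Poly(A) RNA from the hippocampus of 18 mice was sequenced with stranded libraries, per the labels' protocols. The authors deposited expected counts per gene, which need not be whole. The submitters' processing notes name fastp, HISAT2, RSEM and GRCm38 (mm10), without versions; how strand was set when counting, and which annotation release served, is not stated there or in the labels. The counts were rounded to whole numbers, filtered (minimum count 10, minimum total 15), scaled by TMM and tested with edgeR 4.0.16 (quasi-likelihood F test; R 4.3.3) in 1 fit of all 18 libraries, with Benjamini-Hochberg adjustment over the 16738 genes tested and a threshold of 0.05. SE is the log2 fold change divided by the square root of F, and CPM is the count per 1000000 of the scaled library. Alternatives used DESeq2 1.42.0, limma 3.58.1, other filters and scalings, covariates, a correction for transcript GC content (lowess span 0.3, an offset per library, GC known for 98.11% of tested genes) and left-out libraries. Correlations used log2 CPM with a prior count of 2 and 100000 permutations within groups. All labels give 1 batch. The p-values measure the spread between these mice. No 2 libraries of a group agreed within sampling noise: the chi-square per gene was 9.29 to 155 over 45 pairs. The members and the other lists were chosen with earlier results of these data known; all 37 members could be named, and of every other list up to 3 genes with the smallest p in each comparison. Of 314 list symbols 1 was not matched. Leaving out the 5 libraries with thalamic or neocortical markers (mean marker level above 5 log2 CPM), with or without the GC correction, was chosen after seeing the data. So was the GC correction without exercise replicate 4.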

Additional observations from a re-analysis of the deposited data

Results flagged for a closer look

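Among 111 sets of 6 mice (37 genes in 3 groups), 12 held a mouse far from the other 5 by Dixon's criterion, in 10 genes; chance gives about 1 in 20. Of the reactive genes, Lcn2 was at 9.59 CPM in CSDS replicate 6, against 0.277 to 1.99 CPM in the other CSDS mice, and Serpina3n was at 10.4 CPM in control replicate 2, against 46.4 to 59.2 CPM in the other control mice. S100b was at 119.6 CPM in control replicate 2, against 59.4 to 81.3 CPM. In exercise replicate 6, Slc6a11 was at 446.9 CPM against 154.2 to 219.7 CPM, Slc6a9 at 96.8 CPM against 29.9 to 51.8 CPM and Agt at 87.0 CPM against 19.3 to 40.7 CPM. In control replicate 3, Slc6a11 was at 346.8 CPM against 167.6 to 218.8 CPM and Agt at 120.0 CPM against 4.81 to 45.6 CPM. These 2 libraries have the highest thalamic markers; the part of that tissue was not tested. In exercise replicate 5, Slc1a3 was at 892.5 CPM against 563.4 to 631.9 CPM and Aldoc at 1208 CPM against 814.8 to 899.7 CPM. Atp1b2 was at 373.6 CPM in CSDS replicate 4, against 445.1 to 466.7 CPM, and Mlc1 at 230.4 CPM in control replicate 4, against 188.4 to 199.1 CPM.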

How the results depend on the processing

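Each comparison was recomputed under 34 alternatives. In exercise against CSDS, edgeR called 0 genes and 0 members; DESeq2 called 156 genes and 1 member, limma voom with quality weights 5567 and 13, no filter 2 genes, the 2 groups alone 1 gene and the GC correction 1 gene. Leaving out 1 mouse gave 0 to 625 genes and 0 to 2 members: 625 and 2 without exercise replicate 4, and 43 and 0 without CSDS replicate 5. In exercise against control, where 3 genes were called, DESeq2 called 109, voom 183, the choroid plexus covariate 11 and the GC correction without exercise replicate 4 1. It was 0 with no filter, with a filter of 1 CPM, with the 2 groups alone, with the GC correction (also without control replicate 2), and without the 5 libraries with or without that correction. Leaving out 1 mouse gave 0 to 13 genes, with 13 without exercise replicate 4. In CSDS against control DESeq2 called 1 gene. No alternative called a member in either comparison with control mice. The levels gave no sign that replicate numbers pair the mice. Correlations of same-numbered mice ran from -0.465 to 0.255, and each group comparison had at most 1 of 6 pairs over 0.1. The labels do not say whether the numbers pair mice, and low correlations cannot exclude it. With the replicate block 0 genes were called in each comparison, with or without the GC correction, and 0 members. Without control replicate 2 the correlations of Gfap were 0.73 with Vim and 0.63 with Serpina3n, no longer past the threshold after adjustment. Over all members and alternatives, 125 uncalled values in CSDS against control, 123 in exercise against CSDS and 103 in exercise against control changed sign. The causes were not tested. Lcn2, at a mean of 3.46 CPM, is the member that depth limits most.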
